A study of Mus musculus with 8 samples.

Results

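The 10 genes described here build new muscle fibres: the satellite cell genes Pax7 and Cdh15, the 4 transcription factor genes of the MyoD family (Myf5, Myod1, Myog and Myf6), the MEF2 factor genes Mef2a, Mef2c and Mef2d, and the fusion gene Mymk. They are named for their known function in muscle formation. All 10 had a value among the 19752 genes measured, and all 10 were bright enough to be among the 14814 genes tested. The material was whole tibialis anterior muscle of male C57BL/6 mice, 99 weeks old by the sample labels and 22 months old by the study's design text. Every muscle had been injured for 8 s with a metal probe chilled in liquid nitrogen and was harvested on day 8, so that no array shows uninjured muscle. The rIL-33 group (4 arrays) received recombinant interleukin 33, an alarmin cytokine, at 2 µg by intraperitoneal injection on the days before and after injury, and the comparison group (4 arrays) carried the label PBS. The labels also give a genetic background, which is C57BL/6 for replicates 1 and 2 of either group and WT for replicates 3 and 4. No source used here says what this second label separates. Nor do they state that every array had its own mouse: the p-values reflect variation among these 8 samples, which may be technical.

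Skeletal muscle is rebuilt from satellite cells, stem cells that lie on the fibre and are marked by the transcription factor Pax7. After injury they divide, switch on Myf5 and Myod1, then Myog as they leave the cell cycle, and fuse into new fibres through the membrane protein myomaker, which Mymk encodes. Myf6 (MRF4) and the MEF2 factors act late in this sequence and stay on in adult fibres. The MyoD family binds short E-box sequences in the DNA of muscle genes, often together with MEF2 factors.

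The upstream sequences of Myog and Cdh15 are shown here. Among the 7 genes with a window, only these 2 and Mef2c hold matches to CANNTG, the general E-box pattern, in the windows searched. Which factors bind these matches was not tested. Each run gives the 250 bases before the start of the gene, 5′ to 3′ on the coding strand, from RefSeq on build GRCm38.p6, with every match to CANNTG in capitals.

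Myog, chr1:134289754-134290003, plus strand: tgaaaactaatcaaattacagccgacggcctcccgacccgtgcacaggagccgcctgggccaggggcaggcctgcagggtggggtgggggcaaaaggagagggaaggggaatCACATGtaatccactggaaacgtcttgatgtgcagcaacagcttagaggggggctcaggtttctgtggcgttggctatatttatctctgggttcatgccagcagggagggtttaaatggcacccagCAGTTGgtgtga

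Cdh15, chr8:122848124-122848373, plus strand: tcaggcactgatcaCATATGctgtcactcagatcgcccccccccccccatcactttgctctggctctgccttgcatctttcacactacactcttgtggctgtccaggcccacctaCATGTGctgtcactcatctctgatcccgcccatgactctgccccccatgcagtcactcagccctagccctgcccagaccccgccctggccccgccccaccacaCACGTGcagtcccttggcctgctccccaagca

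The Myog window held 2 matches, one of which began 12 bases before the start of the gene, and the Cdh15 window held 3. CANNTG reads alike on both strands and was present in 66.2% of the 32851 upstream windows of this length, so these matches do not set the 2 genes apart. The narrower form CAGCTG, present in 13.0% of all windows, had 0 matches in the Myog and Cdh15 windows. The windows of Myf5, Pax7, Mef2a and Mef2d held 0 matches, and the 3 windows of Mef2c held 2, 0 and 1. Myod1, Myf6 and Mymk had no window in the table. By the gene spans used here, the windows of Myf5, Pax7, Mef2a, Mef2d and Mef2c lay wholly or partly inside the gene. They therefore do not give the 250 bases before its outermost start, as those of Myog and Cdh15 do. The MEF2 consensus was searched as YTAWWWWTAR (Y is C or T, W is A or T, R is A or G). It was found in 2.92% of all windows and had 0 matches in the windows of the 7 genes present. This says only that these exact letters are not there: the run ctatatttat in the Myog window misses the pattern at its last base alone. Whether MEF2 factors bind in these windows was not tested.

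Levels are probe set intensities from Affymetrix gene arrays that the authors normalised with RMA, a method that puts arrays on one scale, and tests were run on their log2 with limma. Median intensity per array lay between 222.6 and 232.2, and 100.4 was the level under which a gene was left out as dim. Genes of mature fibres were bright throughout: the 7 fibre markers Acta1, Ckm, Mb, Ttn, Des, Myh4 and Tnnt3 summed to between 85141 and 91121 on the rIL-33 arrays and between 82164 and 88804 on the PBS arrays. Of all genes tested, 9.40% passed a limma adjusted p of 0.05 for the genetic background label, a count that depended strongly on single arrays. Differences within the labels are therefore given for part of the genes. Arrays of whole tissue cannot tell fewer cells of a type from less RNA per cell.

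None of the 10 genes passed the test between rIL-33 and PBS muscle (0 of 10 past a limma adjusted p of 0.05), although for Mef2c the groups did not overlap. Over all genes tested this threshold called 0.00675%, a single gene. At an unadjusted limma p under 0.05, 0 of the 10 genes passed, against 9.63% of all genes tested. The sign was positive for 5 and negative for 5, and the median log2 difference was -0.002 for the 10 genes and -0.01 for all genes tested. The values of each gene follow by role.

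Pax7 stood at intensities of 394.5, 493.9, 388.9 and 501.4 in the rIL-33 muscles (replicates 1 to 4), against 484.8, 475.4, 428.6 and 404.3 in the PBS muscles. The rIL-33 arrays included both the lowest and the highest of the 8, so the groups overlapped fully. The log2 difference was -0.02 (SE 0.11, 95% interval -0.26 to 0.22, limma adjusted p = 0.975), which as a ratio of geometric means is 0.988 with an interval of 0.837 to 1.17. Cdh15 encodes M-cadherin, the adhesion protein between a satellite cell and its fibre. It read 508.4, 622.9, 516.1 and 540.1 with rIL-33, against 634.4, 523.1, 508.2 and 481.3 with PBS, again with full overlap. Its difference was 0.03 (SE 0.10, interval -0.20 to 0.26, limma adjusted p = 0.955).

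Myf5, the factor of committed satellite cells and myoblasts, read 267.9, 308.6, 246.1 and 294.8 with rIL-33, against 346.6, 331.5, 253.8 and 226.2 with PBS. The PBS arrays lay on both sides of the rIL-33 arrays, and the difference was -0.03 (SE 0.14, interval -0.34 to 0.28, limma adjusted p = 0.961). Myod1, the factor that commits a cell to muscle, read 882.5, 877.9, 722.4 and 836.4 with rIL-33, against 1137 (replicate 1), 917.9, 734.5 and 834.7 with PBS. PBS replicate 1 was the highest of the 8 arrays, and the groups overlapped in the remaining ones. The Myod1 difference was -0.11 (SE 0.13, interval -0.40 to 0.17, limma adjusted p = 0.822), and without PBS replicate 1 it was 0.0027.

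Myog, which drives myoblasts into terminal differentiation, varied most: its highest array was 2.16 times its lowest. It read 404.3, 522.1, 288.3 and 425.7 with rIL-33, against 622.5, 506.0, 380.6 and 401.4 with PBS. The highest array was PBS replicate 1 and the lowest rIL-33 replicate 3, while the other 6 arrays lay between 380.6 and 522.1 with both treatments mixed. The log2 difference was -0.22 (SE 0.19, interval -0.65 to 0.21, limma adjusted p = 0.738), a ratio of 0.857 with an interval of 0.636 to 1.15. It ranged from -0.35 to -0.06 as single arrays were left out, with -0.06 without rIL-33 replicate 3 being the smallest. Myf6 read 6745, 7507, 7626 and 7614 with rIL-33, against 5769, 7647, 7819 and 7589 with PBS. Replicate 1 was the lowest array of both groups, and the remaining 6 arrays spanned only 7507 to 7819. The Myf6 difference was 0.04 (SE 0.10, interval -0.19 to 0.27, limma adjusted p = 0.936).

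**Figure D1:**
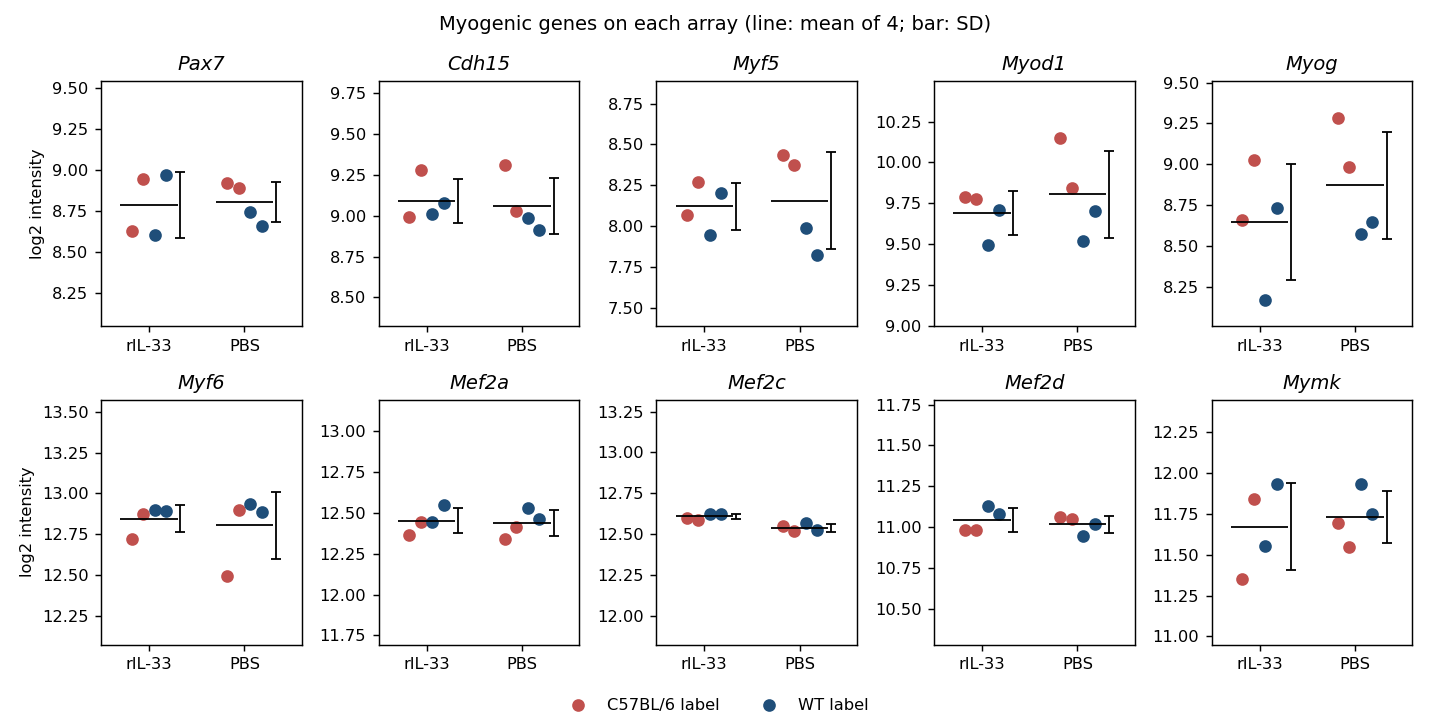
Log2 intensity of the 10 genes on each of the 8 arrays, rIL-33 left and PBS right, with red points for the C57BL/6 label and blue points for the WT label. The line is the group mean, the bar beside it is the SD (n = 4), and every panel spans the same range of log2 units. Apart from Mef2c, the groups overlap in every panel.

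By the probe set used for each gene, the MEF2 genes were the steadiest of the set. Mef2c, whose factor works with the MyoD family and is also found in endothelium and leukocytes, was the 1 gene of the 10 whose groups did not overlap, against 4.57% of all genes tested that stood apart in either direction. It read 6216, 6152, 6310 and 6302 with rIL-33, against 6007, 5862, 6069 and 5884 with PBS. All 4 rIL-33 arrays were higher than all 4 PBS arrays, but by little: the difference was 0.07 (SE 0.06, interval -0.07 to 0.20, limma adjusted p = 0.745), a ratio of 1.05. Taken by label, it was 0.06 for C57BL/6 and 0.08 for WT. Mef2a read between 5266 and 6000 with rIL-33 and between 5194 and 5926 with PBS, a difference of 0.01 (SE 0.07, limma adjusted p = 0.969).

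Mef2d, the remaining MEF2 gene, read 2022, 2026, 2239 and 2164 with rIL-33, against 2134, 2118, 1970 and 2077 with PBS, a difference of 0.03 (SE 0.07, limma adjusted p = 0.943). Its arrays moved in opposite directions under the 2 labels. Both rIL-33 arrays were below both PBS arrays under the C57BL/6 label (-0.07) and above both under the WT label (0.12), with a limma interaction p of 0.148 before adjustment and 0.999 after it. Mef2d was also the 1 gene of the set with 2 probe sets. The dimmer one read 572.8, 534.2, 538.4 and 514.3 with rIL-33, against 576.7, 513.8, 400.1 and 406.8 with PBS, so that the low arrays were the 2 WT-labelled PBS ones. Its difference was 0.20, against 0.03 in the brighter probe set.

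Mymk encodes the protein that lets myoblasts fuse, and it is off in resting adult muscle. It read 2616, 3671, 3007 and 3914 with rIL-33, against 3316, 2997, 3905 and 3440 with PBS. The rIL-33 arrays held the lowest and the highest value. The difference was -0.06 (SE 0.13, interval -0.35 to 0.23, limma adjusted p = 0.922). Mymx, which encodes the second fusion protein, myomixer, is counted with the further fusion genes.

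**Figure D2:**
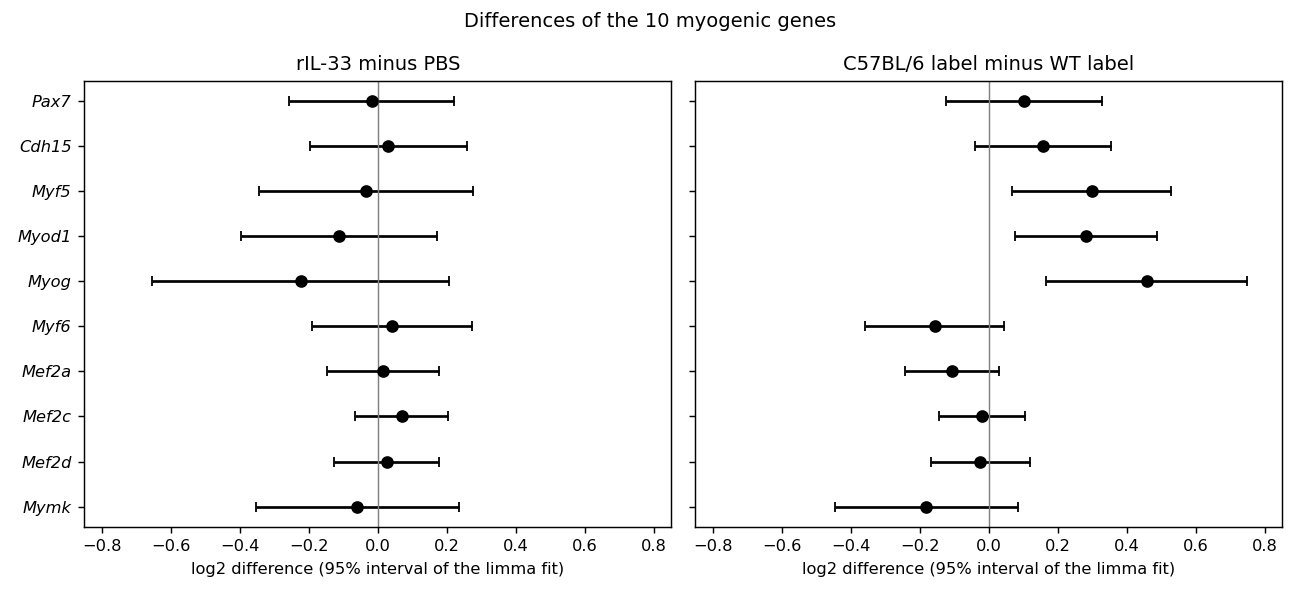
Log2 difference of each gene with its 95% interval from the limma fit, for rIL-33 minus PBS (left) and for the C57BL/6 label minus the WT label (right). All 10 intervals on the left include 0, while those of Myf5, Myod1 and Myog on the right do not, before any adjustment for the number of genes.

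The precision of these values bounds what the comparison could show. In the fit with treatment alone, the 95% intervals of the rIL-33 to PBS ratio ran from 0.636 (lower bound, Myog) to 1.21 (upper bound, Myf5 and Myf6) across the 10 genes. The narrowest, that of Mef2c, ran from 0.956 to 1.15. Variation between the labels stays in these intervals. With the label as a block, the SE of the Myog treatment difference was 0.13 in place of 0.19, with a limma adjusted p of 0.429. The treatment difference of Myf5 was -0.24 under the C57BL/6 label, where both rIL-33 arrays were below both PBS arrays, and 0.17 under the WT label, where they overlapped. The test of that difference gave a limma interaction p of 0.0428 before adjustment, as in 3.19% of all genes tested, and an adjusted p of 0.999. After adjustment 0 of the 10 genes and 0% of all genes passed that test.

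The genes of satellite cells and myoblasts varied together from array to array. This grouping was made after the values had been seen, and the correlations are a description over 8 arrays that share their treatment and label. Among Pax7, Cdh15, Myf5, Myod1 and Myog all 10 pairs had a positive Pearson r, from 0.53 (Pax7 with Myod1) to 0.89 (Myod1 with Myog, Spearman's rho 0.88). PBS replicate 1 was the highest array in 4 of these 5 genes, and without it the r lay between 0.30 and 0.84. After the means of each treatment and label were removed, the r lay between 0.27 and 0.95. Each combination of treatment and label had only 2 arrays, whose deviations then mirror each other. These r therefore rest on fewer independent values than there are arrays. Over all 45 pairs of the 10 genes the median r was 0.06, with 27 above 0. With those means removed, high values were not limited to the 5 genes: Mymk reached 0.96 with Pax7 and 0.86 with Myog, and Mef2a 0.84 with Pax7. Myod1 with Myog remained at 0.71 without the 2 arrays farthest from the median of Myod1, whereas Cdh15 came to 0.09 with Myod1 and 0.17 with Myog without the 2 farthest in Cdh15, so these relations rest on those arrays.

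Myf6 ran the other way. Its r with the 5 genes was between -0.83 (Myod1) and -0.15 (Pax7), but without PBS replicate 1 it lay between -0.44 and 0.35, so the opposition rests largely on that array. In PBS replicate 1 the 5 genes were on average 0.32 above the mean of the 8 arrays on the log2 scale, and Myf6 was 0.33 below it. In rIL-33 replicate 3 the 5 genes were on average 0.26 below the mean, and 3 of them had their lowest value there. Mymk followed Mef2a (r = 0.76, rho 0.83, and 0.91 without PBS replicate 1). With Myf5 the r of Mymk was 0.0029 over the 8 arrays but 0.96 after the means of treatment and label were removed, under the limit given above.

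**Figure D3:**
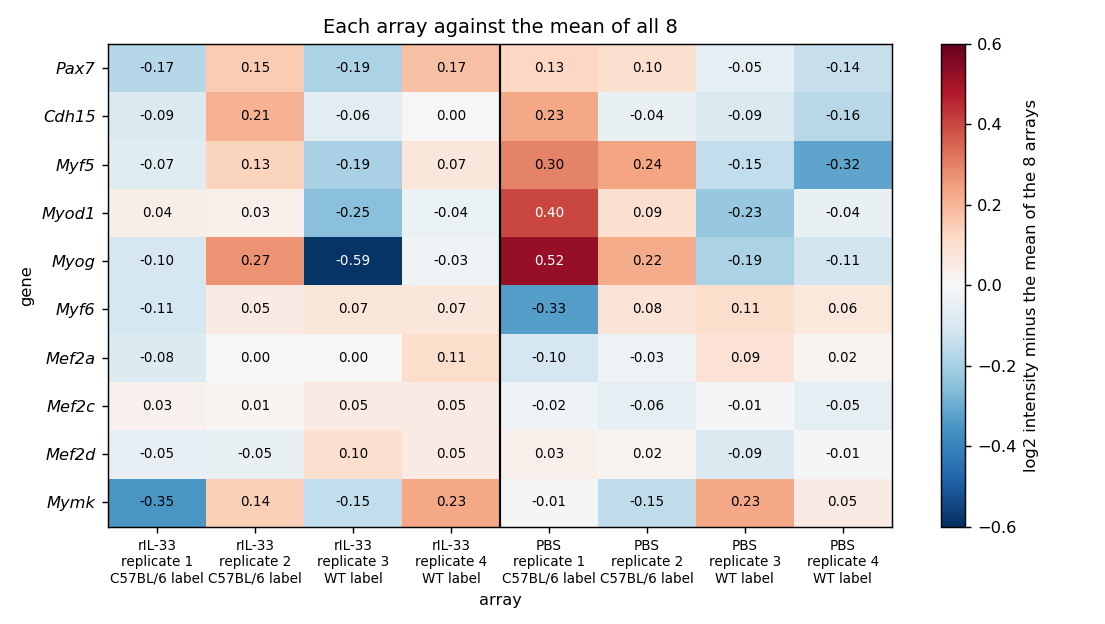
Log2 intensity of each gene on each array minus the gene's mean over the 8 arrays, rIL-33 arrays left of the line and PBS arrays right of it. Red cells mark values above the mean and blue cells values below it; PBS replicate 1 is high in Myod1 (0.40) and Myog (0.52) and low in Myf6 (-0.33).

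Over the whole table, 3 genes outside the set were taken for each member as those with the highest r on the 8 arrays, each array set against the mean of its treatment group. For Myog these were Tdp1, Nisch and Slf2 (r = 0.995, 0.995 and 0.993). For Myod1 they were Ncbp2, Ddx17 and Vps35l (r = 0.995, 0.993 and 0.992), for Pax7 Cpxm1, Plxna2 and Agtr2 (r = 0.995, 0.975 and 0.965), and for Mymk Tvp23a, Slc48a1 and Pkmyt1 (r = 0.978, 0.971 and 0.968). The search ran over 14814 genes with only 8 arrays, so values of this size name likeness in these arrays and nothing more.

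Between the genetic background labels, the differences of all members except Mef2c and Mef2d were larger in size than between the treatments, though none passed the adjusted threshold. Over all genes tested, 1392 were called for the label and 1 for the treatment, so this is not particular to the members. The gap between the contrasts was not tested. In a fit with treatment and label as terms, Myog differed by 0.46, C57BL/6 label minus WT label (SE 0.13, interval 0.16 to 0.75, limma adjusted p = 0.0545). Its intensities were 404.3, 522.1, 622.5 and 506.0 under the C57BL/6 label, against 288.3, 425.7, 380.6 and 401.4 under the WT label, with an overlap of 1 array on each side. Myod1 differed by 0.28 (SE 0.09, interval 0.08 to 0.49, limma adjusted p = 0.0737). It read 882.5, 877.9, 1137 and 917.9 under the C57BL/6 label, against 722.4, 836.4, 734.5 and 834.7 under the WT label. The groups did not overlap for Myod1 alone among the 10 genes, where 11.1% of all genes tested stood apart with the C57BL/6 label higher.

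Myf5 differed by 0.30 between the labels (SE 0.10, interval 0.07 to 0.53, limma adjusted p = 0.0850), at 267.9, 308.6, 346.6 and 331.5 under the C57BL/6 label, against 246.1, 294.8, 253.8 and 226.2 under the WT label. The 1 WT-labelled array inside the range of the C57BL/6-labelled ones was rIL-33 replicate 4. By the probe set used for each gene, these 3 were the members at an unadjusted limma p under 0.05. All had the C57BL/6 label higher, against 18.0% of all genes tested in that direction. After adjustment 0 of the 10 genes passed, against 9.40% of all genes. Without rIL-33 replicate 4, Myog (0.58, limma adjusted p = 0.0339) and Myf5 (0.39, limma adjusted p = 0.0461) passed. The other 7 members differed by between -0.18 (Mymk) and 0.16 (Cdh15), with limma adjusted p between 0.241 and 0.838.

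The count of all genes called for the label, 1392, moved by more than 1.5 times whichever of the 8 arrays was left out, between 10 (without rIL-33 replicate 1) and 2509 (without rIL-33 replicate 2). The arrays of the 2 labels also differed in a technical measure: the lower quartile of intensity was 88.3 to 93.8 under the C57BL/6 label and 97.1 to 107.3 under the WT label. After quantile normalisation, which sets the arrays to one distribution, the label differences were 0.38 for Myog, 0.19 for Myod1 and 0.27 for Myf5 (limma adjusted p = 0.0974, 0.164 and 0.122).

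Further genes of the pathway were taken from 5 lists with 146 genes, of which 142 had a value and 139 were tested. The lists were drawn broadly: that of MEF2 regulators also held other genes such as Stac3, Srf and Tead1, and that of fusion genes held Mstn. For rIL-33 against PBS, 0 of the 139 passed the adjusted threshold in either direction. At an unadjusted p under 0.05 there were 3 of 24 satellite cell genes, 4 of 25 partners and inhibitors of the MyoD family, 4 of 28 regulators of MEF2, 5 of 33 other fusion genes and 0 of 29 targets of the MyoD family. Over the 5 lists these were 16 of the 139 genes tested, against 9.63% of all genes. Satellite cell genes numbered 24 tested, 13 above and 11 below 0, with a median difference of 0.01. Cd34, a surface protein of satellite cells that endothelium and mesenchymal progenitors also carry, had the groups apart. It read 2352, 2507, 2622 and 2782 with rIL-33, against 3091, 2896, 2979 and 3464 with PBS, a difference of -0.28 (SE 0.08, limma adjusted p = 0.489). Eya1, a transcriptional co-activator upstream of the MyoD family, differed by 0.32 (SE 0.10, limma adjusted p = 0.489; 0.19 within the C57BL/6 label and 0.44 within the WT label).

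Among 25 partners and inhibitors of the MyoD family, 11 were above and 14 below 0, with a median of -0.02. The largest differences were those of Csrp3, the muscle LIM protein that binds MyoD factors, and of Bhlhe41, a bHLH repressor. Csrp3 differed by -0.45 (SE 0.22, limma adjusted p = 0.543), with -0.03 within the C57BL/6 label and -0.87 within the WT label. Bhlhe41 differed by 0.42 (SE 0.23, limma adjusted p = 0.565), and by 0.25 without rIL-33 replicate 1. Of the 28 genes tested in the list of MEF2 regulators, 18 were above 0 and 10 below it, with a median of 0.09. Camk2g, a subunit of the calcium kinase CaMKII, which relieves the repression of MEF2 by histone deacetylases, differed by 0.28 (SE 0.11, limma adjusted p = 0.490). Stac3, an adaptor of excitation-contraction coupling, differed by 0.25 (SE 0.16, limma adjusted p = 0.616), with 0.09 within the C57BL/6 label and 0.41 within the WT label. The Stac3 difference was 0.14 without PBS replicate 4 and 0.16 without rIL-33 replicate 1.

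Of 33 other fusion genes, 14 were above and 19 below 0, with a median of -0.03. Adam12, a metalloprotease of fusing myoblasts and of mesenchymal cells, read 367.0, 551.8, 286.6 and 481.7 with rIL-33, against 650.4, 496.3, 615.2 and 610.2 with PBS. Its 2 lowest arrays were rIL-33 replicates 1 and 3, and it differed by -0.53 (SE 0.18, limma adjusted p = 0.489). Mstn, which encodes the growth inhibitor myostatin, differed by 0.34 (SE 0.22, limma adjusted p = 0.633), with 0.01 within the C57BL/6 label, 0.68 within the WT label, 0.17 without PBS replicate 4 and 0.53 without PBS replicate 2. Targets of the MyoD family in new fibres, 29 tested, divided into 14 above and 15 below 0 with a median of -0.01. Smyd1, a methyltransferase of sarcomere assembly, differed by 0.25 (SE 0.11, limma adjusted p = 0.517) and Ccnd3, the cyclin that myoblasts keep as they differentiate, by -0.23 (SE 0.11, limma adjusted p = 0.525).

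The same 29 targets leaned one way by label. For the C57BL/6 label minus the WT label 28 of the 29 differences were above 0, with a median of 0.20, where the median over all genes tested was 0.02. At an unadjusted p under 0.05, 11 of them were higher, 37.9% of the list, against 18.0% of all genes. At the adjusted threshold 2 were higher, 6.9% of the list, near the 6.20% of all genes called in that direction. All 29 lay among the 9876 genes at or above the 50th percentile of mean level, a comparison made after the values were seen. These brighter genes leaned the same way: 67.8% were above 0 with a median of 0.07, 23.4% were higher at an unadjusted p under 0.05, and a fit of them alone called 801 higher and 91 lower. The targets past the threshold were Mylpf, the fast regulatory myosin light chain, higher by 0.51 (SE 0.08, limma adjusted p = 0.0165), and Tnnt1, slow troponin T, higher by 0.35 (SE 0.09, limma adjusted p = 0.0402). Mylpf read 6013, 5062, 5298 and 5215 under the C57BL/6 label, against 4303, 4191, 3523 and 3197 under the WT label, with no overlap. Leaving out single arrays gave 26 to 29 genes above 0 and 0 to 7 past the threshold, and quantile normalisation gave 25 above 0 and 1 past it.

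**Figure D4:**
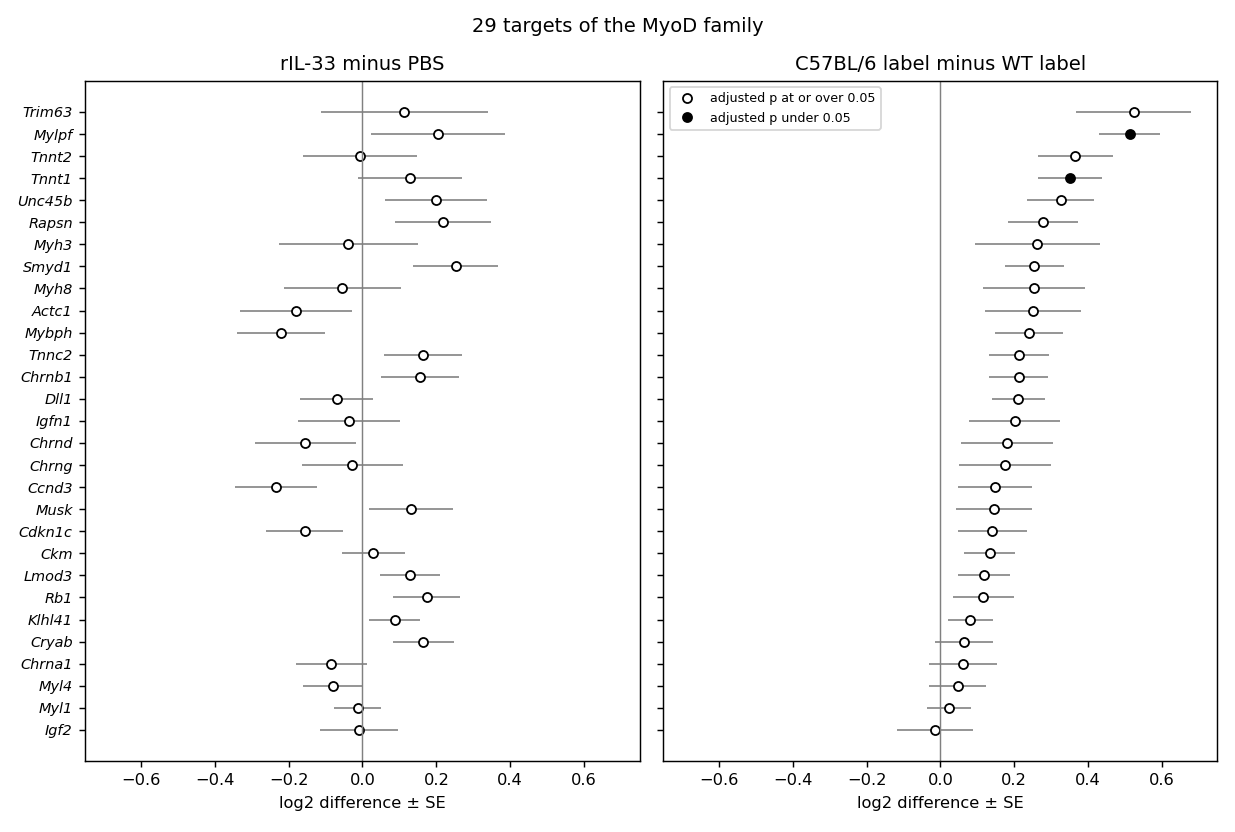
Log2 differences with SE of the 29 tested targets of the MyoD family, for rIL-33 minus PBS (left) and the C57BL/6 label minus the WT label (right), ordered by the label difference. Filled points passed the adjusted threshold; the treatment differences lie on both sides of 0, whereas 28 of 29 label differences lie above it.

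The label differences of the other lists were smaller in their medians, from 0.01 (partners and inhibitors of the MyoD family) to 0.09 (fusion genes). Of their 110 genes tested, 7 passed the threshold with the C57BL/6 label higher, 6.36%, near the 6.20% of all genes. They were Met, the receptor of hepatocyte growth factor on satellite cells (0.42), Id1, an inhibitor of the MyoD family (0.33), Bhlhe41 (0.66), Stac3 (0.38), and the fusion genes Jam3 (0.38), Cav3 (0.26) and Cd9 (0.39), with limma adjusted p between 0.0126 and 0.0489. Nphs1, which encodes nephrin, was lower by this measure (-0.33, limma adjusted p = 0.0498). It lay near the dim level of 100.4, at 97.4, 117.3, 99.7 and 116.4 under the C57BL/6 label. Under the WT label it read 134.9, 121.0, 151.8 and 132.7. Of all 14814 genes tested, 473 were called lower. Of the fibre markers, 7 of 7 were above 0 with a median of 0.05 by label and 0 passed the threshold.

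Markers of other cell types and of the cell cycle were set beside these values, and their part in them was not tested. The 5 fibroblast and progenitor markers with a value were all below 0 with rIL-33 (median -0.36), and their summed intensity was 14287 to 17427 with rIL-33, against 19386 to 22097 with PBS, without overlap. The 5 cell cycle markers with a value were below 0 (median -0.40), with sums of 1565 to 2783 for rIL-33, against 2295 to 3121 for PBS. The 6 macrophage markers were below 0 (median -0.23), with sums of 5363 to 7102 for rIL-33, against 6322 to 8226 for PBS. In these 3 lists, 5 of 5, 4 of 5 and 1 of 6 genes had an unadjusted limma p under 0.05, against 9.63% of all genes tested. The groups stood apart in 3 fibroblast markers and in 0 of the cell cycle and macrophage markers, against 4.57% of all genes. Of all 14814 genes tested, 7705 were below 0. Fibre markers were above 0 in 6 of 7 (median 0.04). Of the 6 endothelial markers, 2 were above and 4 below 0 (median -0.10). The marker lists, 8 in number, also covered smooth muscle, B cells and Schwann cells. None of their genes passed the adjusted threshold for treatment (limma, 0 of 39 tested). By label, the cell cycle sums overlapped, at 1824 to 3121 under the C57BL/6 label and 1565 to 2987 under the WT label.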

How the data were processed

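Gene expression was measured on 8 arrays of RNA from injured muscle. The deposited intensity values were made by the authors with RMA in Affymetrix Power Tools (source: per the submitters' processing notes), and their linear scale was read from the values. Tool versions were not given in the sources used here. Normalization by RMA sets the arrays to one scale and can understate folds of dim probe sets. Of 24922 probe sets, 21425 had 1 gene symbol, 1399 several and 2098 none listed. Per gene the 1-symbol probe set of highest mean was used, and genes under the 25th percentile (intensity 100.4) were left out of the tests. Log2 intensities were tested in R 4.3.3 with limma 3.58.1 (lmFit, eBayes), for treatment alone, for treatment and label, and for their interaction, with Benjamini-Hochberg adjustment over 14814 genes and a threshold of 0.05. Differences are rIL-33 minus PBS or C57BL/6 label minus WT label; intervals are at 95% and unadjusted. The number of arrays limits the precision.

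The members and lists were chosen with earlier results of these data known. Named list genes are those past the threshold or, with fewer than 2, the 2 of largest treatment difference per list; label calls were named after their values were seen. Symbols were matched through gene IDs (RefSeq). The script was tested on simulated data. No 2 arrays held identical values. Alternatives were quantile normalization, 2 other dim filters, eBayes with trend and robust, the mean over probe sets per gene, a block for the replicate number or for the label, fits within either label, no treatment term, and each array left out. Those for list genes and for the target list were added after the data were seen. Figures used matplotlib 3.10.9 in Python 3.11.15.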

Additional observations from a re-analysis of the deposited data

Results flagged for a closer look

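Myf6 was the 1 gene with an array far from the rest of its group, in both groups. In rIL-33 muscles replicate 1 stood at 12.72 on the log2 scale, against 12.87 to 12.90 in the other 3, and in PBS muscles replicate 1 stood at 12.49, against 12.89 to 12.93 in the other 3. The gap took 0.872 and 0.902 of the group's whole range, above Dixon's critical value for 4 samples. Among 20 named genes, 40 groups of 4 were examined, where chance gives about 1 in 20, or 2. The 2 arrays share the replicate number and the C57BL/6 label.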

How the results depend on the processing

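Under 17 alternatives none of the 10 genes passed for rIL-33 against PBS (limma adjusted p between 0.397 and 1.00), and none of the 10 further named genes did. Signs near 0 turned. Under the WT label alone the differences were 0.0852 for Pax7, 0.169 for Myf5 and -0.0157 for Myf6, and under the C57BL/6 label alone -0.0337 for Cdh15 and -0.0709 for Mef2d. Leaving out single arrays gave -0.0791 to 0.0431 for Pax7, -0.0340 to 0.113 for Cdh15, -0.145 to 0.0598 for Myf5, -0.207 to 0.0027 for Myod1, -0.0615 to 0.0847 for Myf6, -0.0192 to 0.0459 for Mef2a, -0.0029 to 0.0460 for Mef2d and -0.148 to 0.0458 for Mymk. The label difference of Mef2d was 0.114 with the mean of its 2 probe sets and -0.0591 to 0.0046 without single arrays. The cause of these turns was not tested.

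Of all genes, 1 was called for the treatment, 2 under the C57BL/6 label alone, 4 under the WT label alone, and 1 to 2 without single arrays. With the replicate number as a block 0 were called (2327 at an unadjusted limma p under 0.05, against 1427). With the label as a block 1 was called (2244 at an unadjusted limma p under 0.05). Same-numbered arrays share the background label, and whether the number marks a pairing was not tested. Deviations of same-numbered arrays correlated at 0.44, -0.19, 0.43 and 0.54. Replicates 3 and 4 of rIL-33 correlated best with their own number, and replicates 1 and 2 did not. For the label, 1392 calls became 415 after quantile normalization, 892 with the 50th percentile filter (9876 genes tested), 796 with no treatment term, and 10 to 2509 without single arrays. No detection call per probe set was used, so how far a dim gene lay above background is unknown.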
